A study of Mus musculus with 8 samples.

Results

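The genes described here encode the subunits of potassium channels, the membrane pores that let potassium out of cells and so set the resting potential and end action potentials. They were chosen by name, as the rows of the count table whose mouse symbol starts with Kcn, leaving out 4 symbols of opposite-strand transcripts. This gave 95 of the 55487 genes in the table. By family they fall into 46 voltage-gated genes (Kcna to Kcnh, Kcnq and Kcns, with the auxiliary Kcnab and Kcne subunits), 15 inward rectifiers (Kcnj), 14 two-pore channels (Kcnk), 9 calcium-activated channels and their auxiliary subunits (Kcnm, Kcnn) and 11 others. The others include Kcnq1ot1, a long non-coding RNA transcribed against Kcnq1, which meets the naming rule but encodes no subunit.

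Polyadenylated RNA of the sciatic nerve was sequenced in mice of postnatal day 6, with 4 libraries in each of 2 groups. Both groups carried Cdk7lox/lox, that is, floxed alleles of the kinase gene Cdk7. The control group (Ctrl) was CNP+/+ and the knockout group (CNP-Cdk7cKO) was CNPcre/+, with Cre recombinase expressed from the Cnp gene to delete Cdk7 in Schwann cells, the glia that form peripheral myelin. No group carried Cre with intact Cdk7 alleles, so the effect of the Cre allele and that of the loss of Cdk7 cannot be told apart. The nerve also holds axons, perineurial and other fibroblasts, blood vessels and macrophages, in which the design does not aim to delete Cdk7. In such whole-tissue RNA, fewer cells of a type and less RNA per cell cannot be told apart.

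Voltage-gated potassium channels open on depolarization; 4 pore-forming subunits, often mixed within a family, surround the pore, and cytoplasmic or membrane-spanning auxiliary subunits tune their gating and traffic. In myelinated nerve, Kv1 channels made of Kcna1 and Kcna2 products are best known for their place on the axon beside the paranode, under the myelin. Inward rectifiers and two-pore channels carry the resting potassium conductance, and in glia the inward rectifier Kir4.1, the product of Kcnj10, is known for taking up potassium released by active axons. Calcium-activated channels link calcium signals to membrane potential.

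The total per library lay between 16897231 and 21527886 estimated counts. Cdk7 measured 21.49 ± 0.70 CPM (counts scaled to a common library size) in Ctrl and 11.6 ± 1.35 CPM in CNP-Cdk7cKO (SD, n = 4), without overlap. By Xist and 4 Y-linked genes, Ctrl 1 and all CNP-Cdk7cKO libraries came from females and Ctrl 2 to 4 from males. The 20 skeletal muscle markers summed to 632 to 6103 CPM in Ctrl, highest in Ctrl 4, and to 117 to 761 CPM in CNP-Cdk7cKO. Of these markers 17 fell, and none was at 0 in all libraries. Of 9 Schwann cell markers, 5 fell and 0 rose, while Sox10, Mal, Foxd3 and Prx did not pass (median log2 fold change -0.19, summed level 106467 to 119200 CPM in Ctrl and 78325 to 86457 CPM in CNP-Cdk7cKO). Of 7 tested neuron markers, 1 rose and 0 fell (summed level 39.5 to 48.2 and 45.2 to 55.2 CPM). Over all tested genes, 6.6% fell and 5.07% rose. Sex, the muscle markers and some Schwann cell transcripts therefore differed between the genotypes. Values from models that add Xist or the muscle markers are given for each called channel gene described. For called genes of the partner, pump, other channel and marker lists only the model with group alone is given, without sex or muscle.

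The letters that build the channel's filter show how alike these genes are as templates for short reads. The lines below give 60 bases of coding sequence, GENCODE M21 transcripts on GRCm38, 5′ to 3′ on the coding strand, around the 18 bases (capitals) that encode the potassium selectivity filter. They are shown for the 3 Kv1 genes that fell, for their Kv1 neighbour Kcna5 and for Kcnh2. The stretch of Kcna2 lies at chr3:107105203-107105262 (plus strand, exon 3 of 3 of its transcript), that of Kcna6 at chr6:126738623-126738682 (minus strand, exon 1 of 1), that of Kcna1 at chr6:126642204-126642263 (minus strand, exon 2 of 2) and that of Kcna5 at chr6:126533721-126533780 (minus strand, exon 1 of 1). That of Kcnh2 lies at chr5:24325531-24325590 (minus strand, exon 7 of 15).
Kcna2: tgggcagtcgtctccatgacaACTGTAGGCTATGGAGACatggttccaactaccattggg
Kcna6: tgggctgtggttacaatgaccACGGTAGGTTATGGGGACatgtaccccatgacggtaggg
Kcna1: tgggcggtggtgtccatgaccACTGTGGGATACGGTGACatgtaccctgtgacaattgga
Kcna5: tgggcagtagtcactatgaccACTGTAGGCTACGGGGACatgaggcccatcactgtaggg
Kcnh2: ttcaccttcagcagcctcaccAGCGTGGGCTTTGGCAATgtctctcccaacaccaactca
Over the 60 bases Kcna6 matched Kcna2 at 42, Kcna1 at 43, Kcna5 at 45 and Kcnh2 at 29. The pore stretches of the Kv1 genes thus differed from that of Kcna2 at 15 to 18 of the 60 bases. Over whole transcripts, the share of 31-base words found in another Kcn gene was 0.347% for Kcna2, 2.15% for Kcna6 and 0.0208% for Kcna1. It was 0.268% for Kcnh2 and 0.526% for Kcnj10, and at most 0.33% for the other called genes reported here. For Kcna5, which was not called, it was 4.31%, with 122 words shared with Kcna6. Few 31-base words of the called genes reported here were thus shared with another channel gene.

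Of the 95 members, 48 had enough counts to be tested, and 7 were at 0 in all 8 libraries. Together the members measured 1018 to 1089 CPM in Ctrl and 842 to 896 CPM in CNP-Cdk7cKO, so their summed level did not overlap between the groups. Of the 48 tested, 11 fell and 5 rose in CNP-Cdk7cKO (edgeR quasi-likelihood test, Benjamini-Hochberg adjusted p under 0.05 over all 15056 tested genes). That is 33.3% of the tested members, against 11.7% of all tested genes. By direction, 22.9% fell, against 6.6%, and 10.4% rose, against 5.07%. The members that fell include Kcnc4 and Kcnj11, which passed the filter on low counts through the Ctrl libraries alone. With Xist as a covariate 3 of the 48 fell and 0 rose, against 1.06% and 0.485% of all genes (1.55% in either direction). In the female libraries alone 3 fell and 0 rose, against 0.511% and 0.266% (0.777% in either direction). The median log2 fold change of the tested members was -0.09, against 0.00 over all genes. Groups did not overlap for 15 of the 48, against 18.8% of all tested genes.

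**Figure D1:**
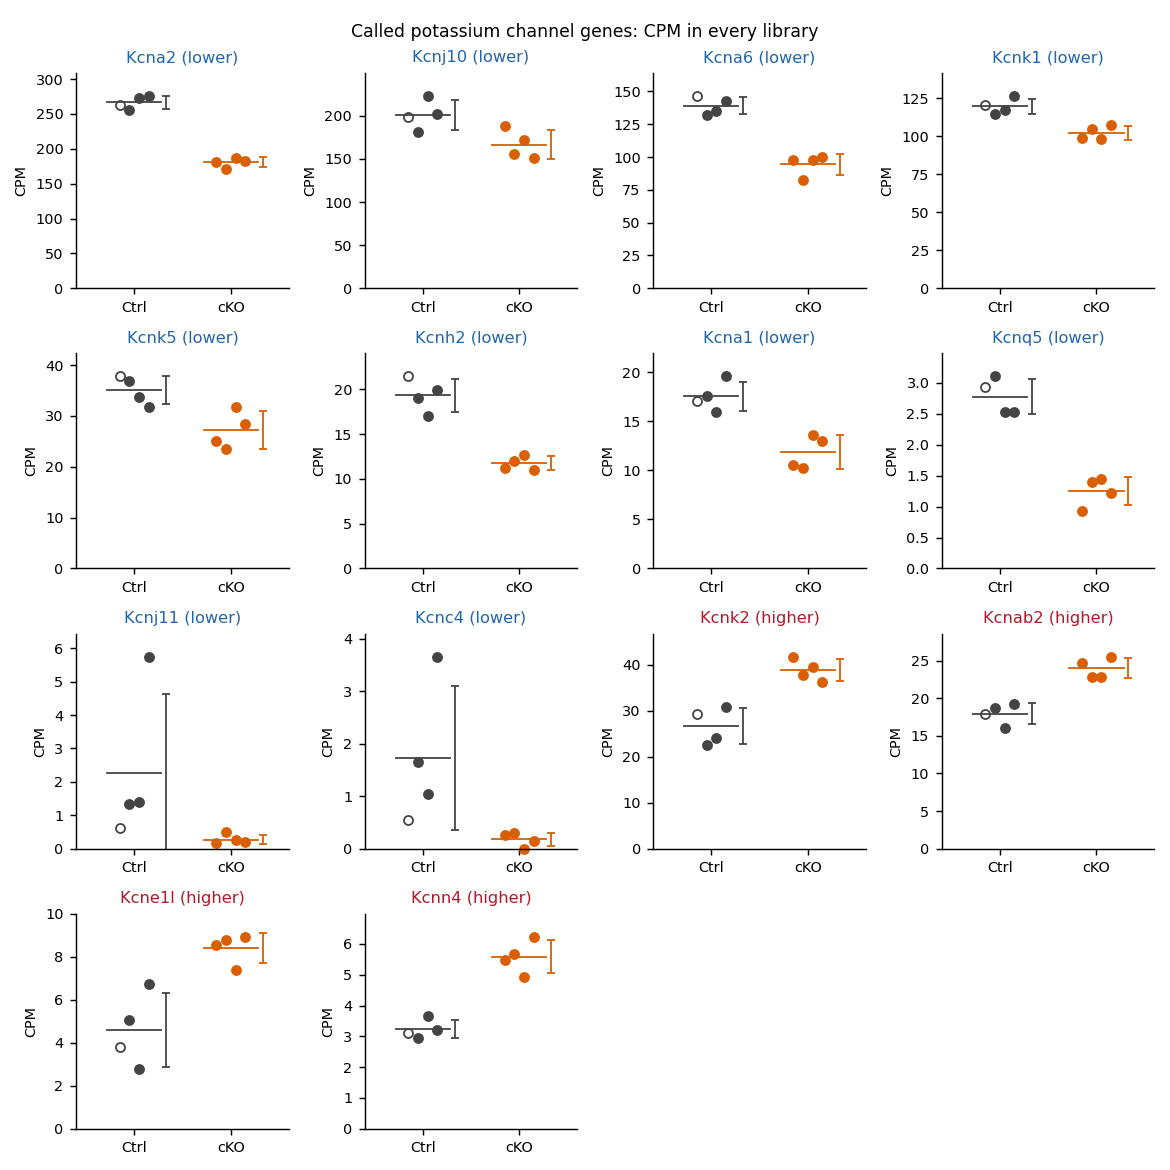
CPM of called potassium channel genes in each library (those reported here) (vertical axes, CPM from 0; points are libraries, lines the mean of 4 and side bars the SD, cut at 0 where they would reach below it; cKO stands for CNP-Cdk7cKO and the open circle is Ctrl 1, the female control). The groups are separate in every panel except Kcnj10, where the highest knockout library (188 CPM) lies above the lowest control (181 CPM).

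By family, among 23 tested voltage-gated genes 7 fell and 3 rose; among 6 inward rectifiers 2 fell and 0 rose; among 7 two-pore genes 2 fell and 1 rose; among 5 calcium-activated genes 0 fell and 1 rose; and among 7 others 0 passed in either direction. Of 38 tested genes of the pore-forming families 11 fell and 3 rose, and of 8 tested auxiliary genes 0 fell and 2 rose. For comparison, 6.6% of all tested genes fell and 5.07% rose. Kcnc4, counted with the voltage-gated genes, and Kcnj11, counted with the inward rectifiers, passed the filter on low counts through the Ctrl libraries alone. Differences between these families were not tested.

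**Figure D2:**
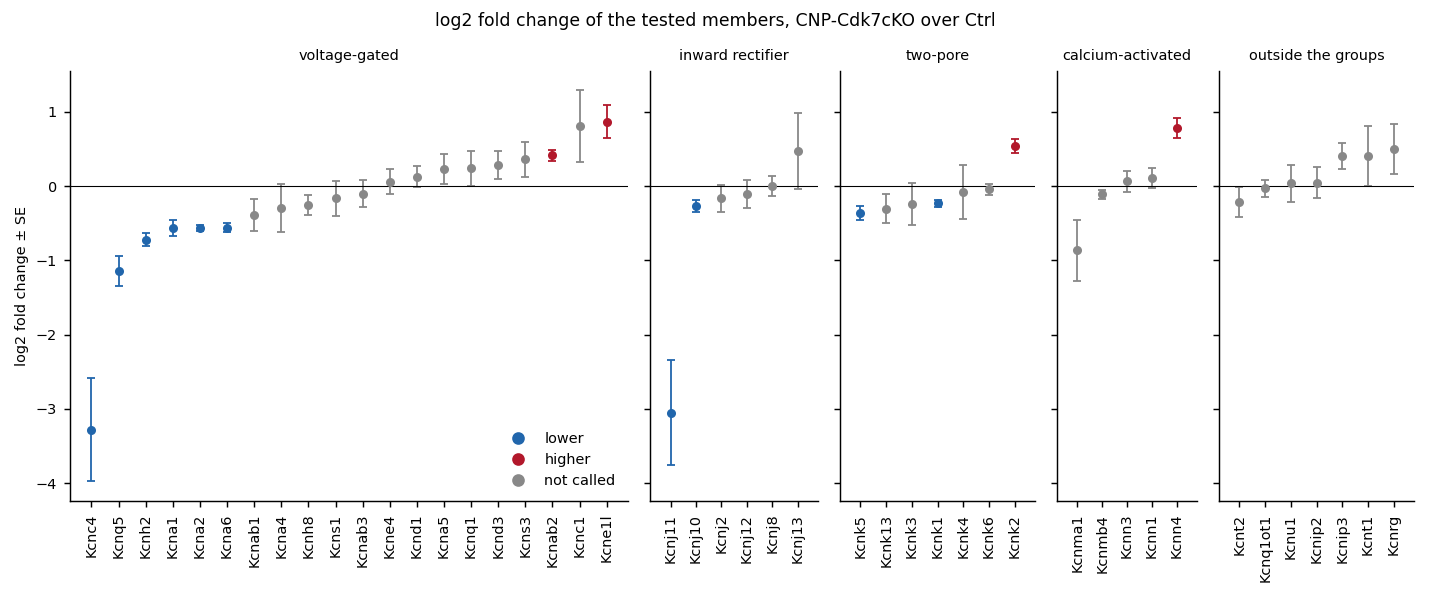
Log2 fold change of CNP-Cdk7cKO over Ctrl for the tested members reported here (points, with SE), ordered within each family; blue fell, red rose, grey did not pass. Kcnc4 (-3.28) and Kcnj11 (-3.05) stand far below the rest with wide errors, and most other called genes lie within 1 log2 unit of 0.

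The Kv1 family of voltage-gated channels fell in 3 of its members. Kcna2 (Kv1.2), on chromosome 3 from 107101146 to 107115005, was the most abundant member by CPM, with 263, 256, 273 and 275 CPM across Ctrl 1 to 4, against 182, 171, 187 and 183 CPM across CNP-Cdk7cKO 1 to 4. Every knockout library lay far below every control, with little spread in either group. The log2 fold change was -0.56 ± 0.04 (SE; edgeR quasi-likelihood adjusted p = 6.98e-05), a level 1.48-fold lower, and by unadjusted p it was number 16 among all tested genes. Kcna6 (Kv1.6), on chromosome 6 from 126708329 to 126740674, measured 146, 132, 135 and 143 CPM in Ctrl against 97.6, 82.7, 97.8 and 99.8 CPM in CNP-Cdk7cKO. Its log2 fold change was the same size (-0.56 ± 0.06, edgeR quasi-likelihood adjusted p = 0.000467). Kcna1 (Kv1.1), from 126640397 to 126646384 on the same chromosome, measured 17.0, 17.5, 15.96 and 19.6 CPM in Ctrl against 10.5, 10.2, 13.6 and 13.0 CPM in CNP-Cdk7cKO (-0.57 ± 0.11, edgeR quasi-likelihood adjusted p = 0.00771). The 3 genes thus had log2 fold changes within 0.01 of each other, although Kcna1 was far less abundant.

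These genes lie in clusters, which let neighbours be compared. On chromosome 6, Kcna5, Kcna1 and Kcna6 stand in that order on the minus strand, 105 and 61.9 kb apart. Kcna5 (Kv1.5) measured 2.93 ± 0.24 CPM in Ctrl against 3.45 ± 0.97 CPM in CNP-Cdk7cKO (SD, n = 4) and did not pass (log2 fold change 0.23, with an adjusted p of 0.505 in the edgeR quasi-likelihood test), so 2 of the 3 clustered genes fell. On chromosome 3, Kcna2 lies between Kcna3 and Kcna10, 63.1 and 68.1 kb away, and neither neighbour had enough counts to be tested. Kcna4 (Kv1.4) measured 0.60 and 0.48 CPM and did not pass (Kcna3, Kcna4, Kcna5 and Kcna10 are described for their place in the family). Among other tested voltage-gated genes, Kcnd1, Kcnd3, Kcne4, Kcns3 and Kcns1 had log2 fold changes from -0.16 (Kcns1) to 0.36 (Kcns3), none of which passed. Kcnc1 (Kv3.1) measured 1.09 ± 1.03 and 1.94 ± 0.58 CPM and did not pass either (log2 fold change 0.81).

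Kcna2 and Kcna6 kept their calls under each of the 15 alternative settings tried. With Xist as a covariate, Kcna2 had a log2 fold change of -0.54 ± 0.07 (edgeR quasi-likelihood adjusted p = 0.00561) and Kcna6 of -0.63 ± 0.10 (adjusted p = 0.0134). In the female libraries alone, with Ctrl 1 the lone control and assumed to vary like the knockout group, the values were -0.54 and -0.63 (adjusted p = 0.0187 and 0.0319). Kcna1 kept its size in both (-0.51 and -0.53) but not its call (adjusted p = 0.189 and 0.255). The falls were also present with a muscle marker term for Kcna2 and Kcna6 (-0.59 and -0.65), and for Kcna1 the value was -0.61 (adjusted p = 0.131). Which cells the Kv1 transcripts came from was not tested.

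Kcnh2, on chromosome 5 from 24319589 to 24351604, fell most among the abundant voltage-gated genes. It encodes the ERG channel (Kv11.1), best known for repolarizing the heart muscle. It measured 21.4, 19.0, 17.0 and 19.9 CPM across Ctrl 1 to 4, against 11.2, 12.0, 12.7 and 10.99 CPM across CNP-Cdk7cKO 1 to 4, so the lowest control stood well above the highest knockout library. The log2 fold change was -0.72 ± 0.09 (edgeR quasi-likelihood adjusted p = 0.000687), a level 1.65-fold lower. It also kept its call under all 15 alternatives, with -0.87 ± 0.13 with Xist as a covariate (adjusted p = 0.00863), -0.87 among females alone (adjusted p = 0.0214) and -0.75 with a muscle term, the mean of the muscle markers (adjusted p = 0.0247). Kcna2, Kcna6 and Kcnh2 were the 3 of the 16 called members that passed in each of these models. Of the other ERG-family genes Kcnh6 and Kcnh7, neither had enough counts to be tested, and Kcnh8, of a sister family, measured 7.48 ± 0.86 and 6.28 ± 0.86 CPM without passing (edgeR quasi-likelihood test, adjusted p = 0.258).

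Kcnq5, a gene of the Kv7 family, which carries slow, low-threshold potassium currents, fell. It was scarce, at 2.94, 3.10, 2.53 and 2.54 CPM in Ctrl against 0.93, 1.40, 1.45 and 1.23 CPM in CNP-Cdk7cKO, and every knockout library lay below every control. It fell by 1.14 ± 0.20 on the log2 scale (adjusted p = 0.00443 in the edgeR quasi-likelihood test). With Xist as a covariate the value was -1.23 and with the muscle term -1.27, and neither passed (adjusted p = 0.0854 and 0.0784). Kcnq1, the family member of heart and epithelia, measured 1.09 and 1.29 CPM and did not pass, and Kcnq3, a subunit of the neuronal M current, had too few counts to be tested.

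The auxiliary voltage-gated genes Kcnab2 and Kcne1l went the other way. Kcnab2, the beta subunit that binds Kv1 channels in the cytoplasm, measured 17.9, 18.7, 16.003 and 19.2 CPM in Ctrl against 24.7, 22.9, 22.8 and 25.6 CPM in CNP-Cdk7cKO, a rise of 0.42 ± 0.07 on the log2 scale (edgeR quasi-likelihood adjusted p = 0.00449). Kcnab2 rose where the Kv1 pore genes Kcna1, Kcna2 and Kcna6 fell; its paralogs Kcnab1 and Kcnab3 had log2 fold changes of -0.39 and -0.10 that did not pass. Kcne1l, an X-linked single-pass auxiliary subunit also called Kcne5, measured 3.79, 5.07, 2.77 and 6.73 CPM in Ctrl against 8.53, 8.80, 7.38 and 8.93 CPM in CNP-Cdk7cKO (0.87 ± 0.22, adjusted p = 0.0278). Ctrl 1, the female control, lay within the range of the males for Kcne1l, and in the female libraries alone its value was 1.14 (adjusted p = 0.0526). Kcne1l had a value of 1.16 with Xist as a covariate and did not pass (adjusted p = 0.175), and with the muscle term it had 1.52 and passed (adjusted p = 0.0181). Kcnab2 had a value of 0.42 with Xist and 0.50 with the muscle term, and neither passed (adjusted p = 0.138 and 0.0646). The call of Kcne1l ended without Ctrl 1 (adjusted p = 0.067), Ctrl 2 (0.0577), or CNP-Cdk7cKO 1, 2 or 4 (0.0652, 0.0649 and 0.0652).

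The inward rectifier Kcnj10, on chromosome 1, was the second most abundant member by CPM. It measured 199, 181, 223 and 202 CPM in Ctrl against 188, 155, 172 and 151 CPM in CNP-Cdk7cKO. Unlike the other called genes its groups overlapped, with CNP-Cdk7cKO 1 above Ctrl 2, and it passed narrowly (log2 fold change -0.27 ± 0.08, with an adjusted p of 0.0498 in the edgeR quasi-likelihood test). The call ended without Ctrl 1, 3 or 4 (adjusted p = 0.083, 0.137 and 0.0808) and without CNP-Cdk7cKO 2, 3 or 4 (0.123, 0.0766 and 0.11), with values from -0.29 to -0.22. It also ended with Xist (-0.26, adjusted p = 0.382), among females (-0.26, adjusted p = 0.399) and with the muscle term (-0.32, adjusted p = 0.269). Kcnj8, the pore of the vascular ATP-sensitive channel and a gene of pericytes, measured 18.4 ± 2.18 CPM in Ctrl against 18.5 ± 3.78 CPM in CNP-Cdk7cKO (0.01 ± 0.14, adjusted p = 0.981). Its regulatory partner Abcc9 (22.2 and 19.3 CPM) did not pass either, and the 10 mural cell markers summed to 627 to 715 and 625 to 731 CPM, with 1 higher and 1 lower. Kcnj2 (Kir2.1) measured 5.62 ± 0.49 and 5.02 ± 1.33 CPM and did not pass (adjusted p = 0.627).

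The largest fold changes of the tested members were in Kcnc4 and Kcnj11, whose levels in Ctrl were in nearly the same order as the muscle markers. Kcnc4 (Kv3.4), also a gene of skeletal muscle, measured 0.55, 1.65, 1.03 and 3.66 CPM across Ctrl 1 to 4, against 0.26, 0.29, 0 and 0.15 CPM across CNP-Cdk7cKO 1 to 4 (log2 fold change -3.28 ± 0.70, with an adjusted p of 0.0129 in the edgeR quasi-likelihood test). Kcnj11 (Kir6.2), the pore of the ATP-sensitive channel of muscle and pancreatic beta cells, measured 0.61, 1.34, 1.41 and 5.75 CPM and 0.16, 0.48, 0.25 and 0.20 CPM (-3.05 ± 0.71, adjusted p = 0.0186). Both peaked in Ctrl 4, whose muscle markers summed highest, and both were lowest among the controls in Ctrl 1, whose muscle markers summed lowest. Ctrl 1 was also the only female control, and whether muscle content or sex had a part in these falls was not tested. Both passed the filter on low counts through the Ctrl libraries alone, since 0 of 4 knockout libraries reached the filter level of 0.504 CPM, so a difference was needed for them to be tested. With a muscle marker term the values were -0.96 and -0.49 (adjusted p = 0.489 and 0.738), with Xist they were -1.58 and -1.07 (adjusted p = 0.533 and 0.691), and without Ctrl 4 they were -2.61 and -2.04 (adjusted p = 0.0211 and 0.0168). Kcnj11 lost its call without CNP-Cdk7cKO 1 or 4 (adjusted p = 0.0558 and 0.0527). Kcna7 (Kv1.7), a muscle channel gene with too few counts to be tested, measured 0.24, 0.62, 0.05 and 0.68 CPM in Ctrl against 0.10, 0, 0 and 0 CPM in CNP-Cdk7cKO, where a library with 3 counts would read 0.145 to 0.155 CPM; it was named after its values were seen.

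**Figure D3:**
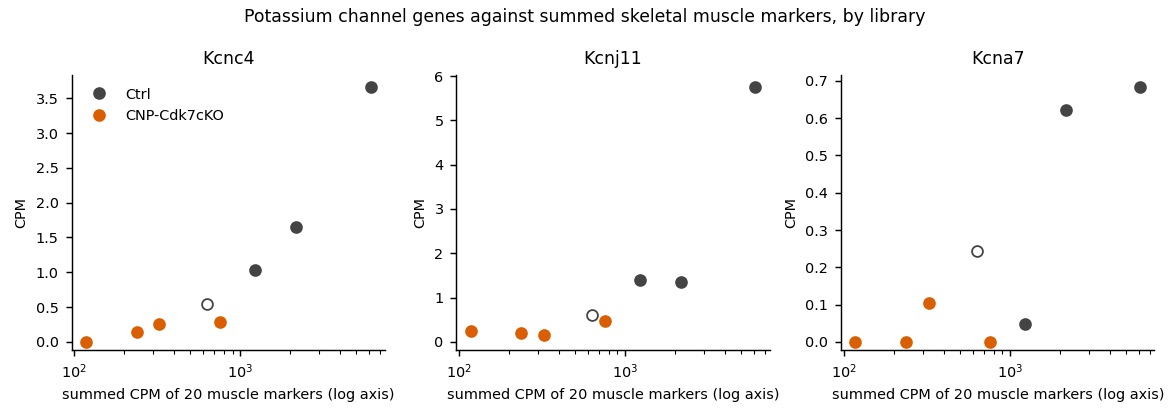
CPM of Kcnc4, Kcnj11 and Kcna7 (vertical axes) against the summed CPM of 20 skeletal muscle markers (horizontal log axis) in the 8 libraries; grey is Ctrl, with Ctrl 1 open, and orange is CNP-Cdk7cKO. Ctrl 4, at 6103 CPM of muscle markers, has the highest value in each panel, and all knockout libraries lie below 0.5 CPM in each panel; CNP-Cdk7cKO 2 has more muscle signal (761 CPM) than Ctrl 1 (632 CPM).

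Two-pore channels moved in both directions. Kcnk1 (TWIK1), on chromosome 8, measured 121, 115, 118 and 126 CPM in Ctrl against 98.7, 105, 98.2 and 107 CPM in CNP-Cdk7cKO, a small fall with no overlap (log2 fold change -0.23 ± 0.05, with an adjusted p of 0.013 in the edgeR quasi-likelihood test). Kcnk5 (TASK2), a channel regulated by extracellular pH, measured 37.8, 36.9, 33.7 and 31.8 CPM in Ctrl against 25.1, 23.6, 31.8 and 28.4 CPM in CNP-Cdk7cKO (-0.36 ± 0.09, adjusted p = 0.0277). For Kcnk5 the lowest control and the highest knockout library nearly touched, and the call ended without Ctrl 1, 2 or 3 (adjusted p = 0.07, 0.0819 and 0.0538) and without CNP-Cdk7cKO 1 or 2 (0.0759 and 0.0672). It also ended with the replicate number as a block (adjusted p = 0.0501).

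Kcnk2 (TREK1), a channel opened by membrane stretch and lipids, rose from 29.4, 22.6, 24.1 and 30.8 CPM in Ctrl to 41.8, 37.8, 39.6 and 36.4 CPM in CNP-Cdk7cKO (0.54 ± 0.09, edgeR quasi-likelihood adjusted p = 0.00465). Every knockout library of Kcnk2 lay above every control, and the value was 0.41 with Xist as a covariate (adjusted p = 0.228). With Xist, Kcnk1 had a value of -0.24 (adjusted p = 0.184) and Kcnk5 of -0.47 (adjusted p = 0.146). With a muscle marker term Kcnk1 had a value of -0.16 (adjusted p = 0.374), Kcnk5 of -0.66 (adjusted p = 0.012) and Kcnk2 of 0.62 (adjusted p = 0.0688). The remaining 4 tested two-pore genes did not pass, among them Kcnk6 at 13.9 ± 0.48 and 13.5 ± 0.77 CPM.

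Among calcium-activated channels Kcnn4 rose. Its product, the intermediate-conductance channel, is best known in immune cells, red blood cells and fibroblasts. It measured 3.12, 2.95, 3.66 and 3.22 CPM in Ctrl against 5.48, 5.66, 4.94 and 6.23 CPM in CNP-Cdk7cKO, with a clear gap between the groups (log2 fold change 0.78 ± 0.13, with an adjusted p of 0.00428 in the edgeR quasi-likelihood test). With Xist as a covariate the value was 0.84 and with the muscle term 0.82, and neither passed (adjusted p = 0.121 and 0.1). Of 10 macrophage and mast cell markers, the macrophage genes Csf1r, C1qa, C1qb and Cx3cr1 rose and 0 fell, with a summed level of 351 to 441 CPM in Ctrl and 416 to 495 CPM in CNP-Cdk7cKO. The mast cell genes Cpa3 (2.70 and 1.53 CPM) and Mcpt4 (3.07 and 1.99 CPM) did not pass. Of 9 tested fibroblast and perineurial markers, Col1a1, Pdgfra and Gli1 rose and 0 fell, while Itgb4 (306 and 253 CPM), Pi16 (36.0 and 32.3 CPM) and Cldn1 (96.8 and 99.5 CPM) did not pass. Their summed level, 16834 to 19232 against 19816 to 22860 CPM, was mostly Col1a1 (15705 and 18727 CPM). Of 7 erythroid markers 0 passed in either direction (median log2 fold change -0.57, summed level 745 to 2164 and 933 to 1469 CPM). No gene of these lists was at 0 in all libraries, and their part in the rise of Kcnn4 was not tested. Over all tested genes, 5.07% rose and 6.6% fell. Kcnmb4, a beta subunit of the large-conductance BK channel, measured 43.3 ± 3.70 and 40.2 ± 0.35 CPM (adjusted p = 0.306), and its pore gene Kcnma1 0.96 ± 0.42 and 0.53 ± 0.25 CPM (adjusted p = 0.214). The small-conductance channel genes Kcnn1 (5.26 and 5.66 CPM) and Kcnn3 (5.28 and 5.54 CPM) did not pass either.

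Outside these families, the KChIP genes Kcnip3 and Kcnip2, whose products bind Kv4 channels, measured 3.26 ± 0.36 and 4.33 ± 0.85 CPM, and 2.30 ± 0.54 and 2.38 ± 0.31 CPM, in Ctrl and CNP-Cdk7cKO. Kcnip3 had the smallest p of the genes outside the groups but missed the threshold (0.41 ± 0.17, adjusted p = 0.164 in the edgeR quasi-likelihood test). The non-coding Kcnq1ot1 measured 10.1 ± 1.06 and 9.84 ± 1.34 CPM. Since it overlaps Kcnq1 on the other strand, and the strand setting of the counting is not given in the sources used here, its reads and those of Kcnq1 may not be fully separate. The same holds for genes annotated on the other strand across the called genes Kcna6, Kcnab2, Kcnh2, Kcnk1, Kcnk2 and Kcnq5. It also holds for members that did not pass, among them Kcnmb4, Kcnma1, Kcnab1, Kcnab3 and Kcnd3.

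Levels of different genes can be compared per length, here as mean CPM per kb of annotated exon, which reads low for genes with unused long exons. In Ctrl, Kcnk1 stood first at 53.6 ± 2.26 CPM per kb (SD, n = 4), followed by Kcnj10 (37.2 ± 3.18), Kcna6 (23.4 ± 1.11) and Kcna2 (22.4 ± 0.76). Kcna6 and Kcna2 differed by less than the SD of Kcna6 and by more than that of Kcna2. Per kb of the longest transcript instead, Kcnmb4 (26.6 CPM per kb) came after Kcnj10 and ahead of Kcna6 (23.8) and Kcna2 (23.0). Kcna2 led by CPM but not per length, its exons spanning 11.9 kb, against 2.24 kb for Kcnk1. Per kb of exon, Kcnmb4 (13.0), Kcnk5 (10.3), Kcnj8 (7.21) and Kcnk2 (5.41 CPM per kb) were among the next. In CNP-Cdk7cKO the order of the first 4 was the same, at 45.8, 30.8, 15.9 and 15.2 CPM per kb, while Kcnk2 (7.87 CPM per kb) passed Kcnj8. Kcna2, Kcnj10, Kcna6 and Kcnk1 made up 68.4% of the members' summed CPM in Ctrl and 62.1% in CNP-Cdk7cKO.

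**Figure D4:**
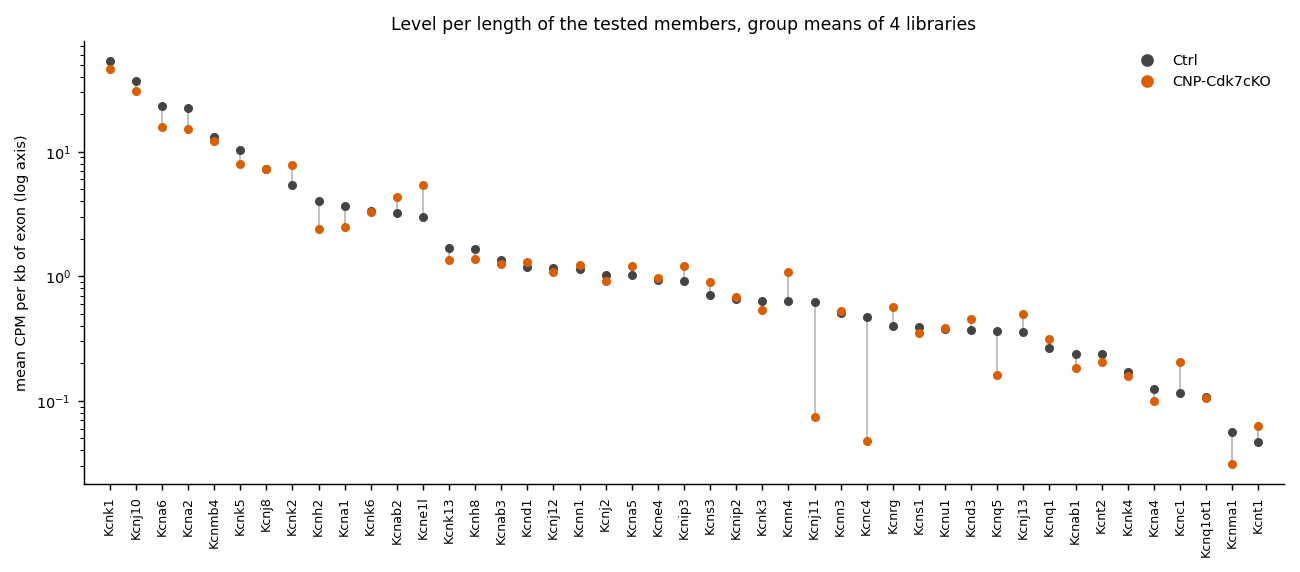
Mean level of the tested members reported here in CPM per kb of annotated exon (vertical log axis), ordered by their level in Ctrl (grey) and joined to the mean in CNP-Cdk7cKO (orange). Kcnk1 and Kcnj10 lead in both groups at 53.6 and 37.2 CPM per kb in Ctrl, and the long drops of Kcnj11 and Kcnc4 are at low levels.

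The 47 members without enough counts to be tested include 23 voltage-gated, 9 inward rectifier, 7 two-pore, 4 calcium-activated and 4 other genes. The highest of them were Kcnk10 (0.35 and 0.65 CPM in Ctrl and CNP-Cdk7cKO), Kcnf1 (0.48 and 0.31 CPM) and Kcnv1 (0.40 and 0.28 CPM). The 7 at 0 throughout were Kcne1, Kcnj1, Kcnj6, Kcnk15, Kcnk16, Kcnk18 and Kcnmb2, and at these depths a count of 0 allows up to 0.141 to 0.184 CPM per library (3 counts, counting error only).

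Proteins that bind, cluster or assist these channels carry other symbols. Of 13 tested genes among 20 channel partners, 2 fell and 0 rose (median log2 fold change -0.11, against 0.00 over all genes), where 6.6% of all tested genes fell and 5.07% rose. These were Adam23 (61.6, 58.1, 56.2 and 64.7 CPM in Ctrl against 28.1, 22.8, 44.6 and 30.7 CPM in CNP-Cdk7cKO; -0.93 ± 0.16, edgeR quasi-likelihood adjusted p = 0.00415) and Adam22 (-0.30 ± 0.07, adjusted p = 0.0184). Both encode catalytically inactive proteases that bind LGI proteins, and Adam22 is a known part of the axonal Kv1 complex. The Kv1-clustering gene Cntnap2 had too few counts to be tested (0.46 and 0.12 CPM), and the scaffold genes Dlg1 (44.6 and 44.2 CPM) and Dlg4 (53.0 and 48.3 CPM) did not pass. Of 16 tested genes of sodium-potassium pumps and potassium-chloride cotransporters, 4 fell and 0 rose (median 0.00), against the same shares of all genes.

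All 4 belong to the pump. Its beta subunit gene Atp1b1 went from 12.3 ± 1.76 to 7.82 ± 1.33 CPM (-0.65 ± 0.14, edgeR quasi-likelihood adjusted p = 0.0131), and the pump regulators Fxyd1 (-0.47 ± 0.07) and Fxyd3 (-0.27 ± 0.07) fell too. Among 22 tested sodium, calcium and HCN channel genes 2 fell and 0 rose (median 0.02), a share near the 6.6% of all tested genes that fell. One was the muscle calcium channel gene Cacna1s (-2.05 ± 0.58), whose groups overlapped and which was highest in Ctrl 4 at 46.6 CPM.

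The promoters of the called genes were examined for short sequence elements, since members of both directions were at hand. RefSeq promoters (GRCm38.p6, 250 bases before to 50 after the start) were matched for 12 of the 16 called genes and for 70 of the 95 members. Shown are 200 bases before the start for Kcnh2, at chr5:24329592-24329791 (minus strand), and for Kcnn4, at chr7:24370063-24370262 (plus strand), which are a gene that fell and one that rose with a single listed start and no annotated exon in the stretch. The start listed for Kcnh2 lies inside the annotated gene, well downstream of its outer 5′ end. Capitals mark GGGCGG, the Sp-type GC box, on either strand.
Kcnh2: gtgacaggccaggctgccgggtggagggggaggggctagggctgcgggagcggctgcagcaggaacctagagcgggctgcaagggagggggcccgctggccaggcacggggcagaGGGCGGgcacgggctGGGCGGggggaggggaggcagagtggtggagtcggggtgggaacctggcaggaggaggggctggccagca
Kcnn4: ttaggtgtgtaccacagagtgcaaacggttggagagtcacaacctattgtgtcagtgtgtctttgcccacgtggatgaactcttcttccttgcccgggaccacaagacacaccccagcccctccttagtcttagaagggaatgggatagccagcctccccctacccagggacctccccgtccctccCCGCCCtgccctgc
GGGCGG was present in 5 of 9 promoters of genes that fell and in 4 of 9 promoters of genes that rose, and in 35.7% of all 32851 promoters of the same length. TATAAA was in 0 of both sets of 9, against 13.6% of all promoters. CCAAT was in 2 of each 9 (37.4% of all), and ACAAAG, a core recognized by Sox factors, in 1 and 3 (18.7% of all). Among the 48 promoters of tested members, which include those of the called genes, GGGCGG was in 24 and TATAAA in 2. CCAAT was in 14 of these 48 and ACAAAG in 10. Shares among all promoters need not be those of the channel genes, and differences between these sets were not tested. Both strands were searched, matches of different motifs that overlap were each counted, and some genes have several listed promoters. A match is a description of letters and not a binding site.

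All 16 called genes kept their direction under each of the 15 alternatives. When Xist was added 3 of them still passed, all lower, and in the female libraries alone the same 3, Kcna2, Kcna6 and Kcnh2. With a muscle marker term 7 of the 16 still passed, among them these 3 with Kcnk5 and Kcne1l. In that model 5 of the 48 tested members fell and 3 rose, against 1.29% and 0.976% of all genes (2.26% in either direction). Of the members, 16 passed with RLE factors (11.7% of all genes), 17 without the count filter (6.83%), 16 with DESeq2 (13.1%) and 15 with the replicate number as a block (10.7%). Standard errors were wider with Xist in the model, by a median of 1.64 times over all tested genes.

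**Figure D5:**
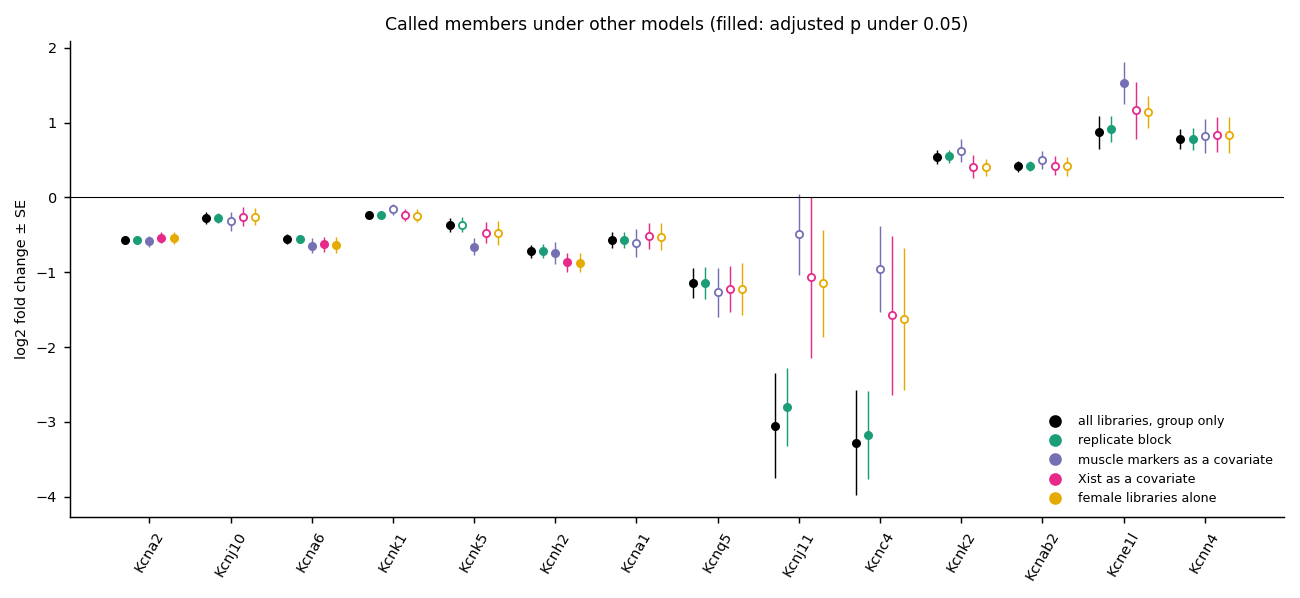
Log2 fold change (vertical axis, with SE) of the called members reported here under 5 models; filled points have an adjusted p under 0.05. Points of a gene stay on the same side of 0 in each model, and Kcna2, Kcna6 and Kcnh2 are filled throughout, while Kcnj11 and Kcnc4 move toward 0 with the muscle or Xist covariate.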

How the data were processed

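The deposited values are estimated counts per Ensembl gene. The authors used STAR, Salmon and GRCm38, per the submitters' processing notes; the settings, strand option and annotation they chose are not stated in what was used here. Libraries were stranded and polyadenylated, per the labels' protocols. Values were rounded to whole counts (8.29% were not whole). Replicates of a group differed by more than counting noise (chi-square per degree of freedom 3.86 to 17.6). Symbols, positions and exon lengths came from GENCODE M21 (GRCm38).

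The filterByExpr rule (at least 10 counts, total of at least 15) left 15056 genes. Counts were scaled by TMM and compared with edgeR 4.0.16 in R 4.3.3 (quasi-likelihood F test, group as the only term, Benjamini-Hochberg adjusted p under 0.05). An approximate standard error is the log2 fold change divided by the root of F. The labels do not state separate animals, so p-values cover only the spread among libraries, which may be technical. Alternatives were RLE factors, no filter, DESeq2 1.42.0, a replicate block, Xist or muscle markers as a covariate, female libraries alone, and each library left out. The steps were tested on simulated counts.

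The members, lists and tests were chosen with earlier results of these data known. Named genes are all called members and the 3 most abundant by CPM in each family and among untested members, with all called genes of the 3 partner lists; others are family neighbours, partners or marker genes named after their values were seen. Some genes that meet this rule are counted but not reported here.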

Additional observations from a re-analysis of the deposited data

Results flagged for a closer look

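Of 50 groups of 4 libraries checked (25 named members in 2 genotypes), 3 held a library whose gap to its nearest neighbour, as a share of the group's range, exceeded the 95% critical value of Dixon's test for 4 values. Chance flags about 1 in 20 such groups. Kcna6 was low in CNP-Cdk7cKO 2 (82.7 CPM, next 97.6, share 0.871). Kcnj11 was high in Ctrl 4 (5.75 CPM, next 1.41, share 0.845), the library with the highest summed muscle markers. Kcnmb4 was high in CNP-Cdk7cKO 2 (40.7 CPM, next 40.04, share 0.876), within a range of less than 1 CPM.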

How the results depend on the processing

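The counts of 5 channel genes called higher and 11 called lower were the same with RLE factors and DESeq2; without the count filter they were 5 and 12, the added gene being Kcna7. With Xist as a covariate they were 0 and 3 (73 and 160 over all genes), in the female libraries alone 0 and 3 (40 and 77), and with a muscle marker term 3 and 5 (147 and 194). The muscle term added Kcnc1, as did leaving out Ctrl 4. With one library left out, 4 to 6 channel genes were called higher and 9 to 10 lower, against 466 to 656 and 654 to 833 over all genes; without Ctrl 2 these were 466 and 654, and without Ctrl 3, 496 and 708. The replicate block gave 5 and 10 channel genes (682 and 926 over all genes), and its only lost channel call was Kcnk5. Deviations of libraries with the same number correlated at 0.01 to 0.16, so the numbers were not taken as pairs, and 3 of 8 libraries correlated best with their own number. Over the 16 called genes and 15 settings, 54 of 240 values lost the call, and none changed direction. Only Ctrl 1 is a female control, so models with sex rest on that library, and genes near 1 CPM are limited by counting error.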
